A study of Mus musculus with 11 samples.

Results

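The genes described here copy DNA, supply its building blocks or control such genes. They encode the helicase, the polymerases and their accessory proteins, the enzymes of deoxynucleotide synthesis, and E2F factors, both activators and a repressor. They were taken from a list of 54 gene symbols. Of these, 53 had a probe set annotated with that symbol alone, out of 18193 such genes on the array, and each gene was read from its probe set with the highest mean over the 11 arrays. Chaf1a was not analysed here. All 53 lay above the filter on low values and were among the 14806 genes tested.

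RNA was measured on Affymetrix arrays in CD8+ T cells of Pmel-1 transgenic mice, whose T cells carry a transgenic receptor for a peptide of the melanocyte protein gp100. The cells were enriched either as CD44- naive or as CD44+ central memory cells, were activated with plate-bound CD3 and CD28 antibodies, and were later restimulated on allogeneic feeder cells carrying the hgp100 peptide, in medium with 10 cetus units of interleukin 2. All 4 groups share this transgene and this expansion. They differ in the starting cell and in whether the expanded cells were given CD3/CD28 stimulation for a final 4 h before RNA extraction. Memory unstimulated cells had 3 arrays, memory stimulated cells 3, naive unstimulated cells 2 and naive stimulated cells 3, from 3 independent experiments that give the arrays their numbers. "Naive" and "memory" below name the starting cell, since all cells had been expanded in culture. The labels speak of enrichment and give neither the purity of the cells nor the share of feeder cells left.

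Replication is prepared in the G1 phase of the cell cycle. The origin recognition complex (Orc proteins), Cdc6 and Cdt1 load the ring-shaped Mcm helicase onto DNA, a step called licensing, and geminin (Gmnn) blocks Cdt1 afterwards. In S phase the Dbf4-dependent kinase Cdc7 fires the origins, Cdc45 and the GINS complex join the helicase, and polymerases alpha, delta and epsilon copy the strands. Activating E2F factors, held back by retinoblastoma proteins in resting cells, drive many of these genes. T cells that divide after antigen contact switch these genes on together.

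Promoters are shown because E2F factors act through short promoter sequences and because many of these genes moved together below. RefSeq start sites of the GRCm38.p6 build were available for 45 of the 54 listed genes, as windows of 300 bases, 250 before the start and 50 after it. The words TTTCCCGC, TTTGGCGC, TTTCGCGC and TTTGCCGC, forms of the E2F site, were searched on both strands. TTTGGCGC and TTTCGCGC can overlap each other. At least 1 of them stood in 15 of the 45 genes (33.3%), against 704 of 27025 genes with a window (2.6%). The genes that hold one are Mcm3, Mcm5, Mcm6, Mcm7, Orc1, Cdc6, Cdt1, Gins3, Rfc3, Pola1, Pold1, Pole2, Lig1, E2f2 and Clspn. The stretches of 250 bases before the start are printed for 2 helicase genes, for Orc1, which moved the other way, and for Tk1, which had the word nowhere in its window. They lie at chr1:128359706-128359955 (Mcm6, minus strand), chr5:138171884-138172133 (Mcm7, minus strand), chr4:108579204-108579453 (Orc1, plus strand) and chr11:117826015-117826264 (Tk1, minus strand). Each reads 5′ to 3′ along its gene, and the capitals mark the E2F words.
Mcm6: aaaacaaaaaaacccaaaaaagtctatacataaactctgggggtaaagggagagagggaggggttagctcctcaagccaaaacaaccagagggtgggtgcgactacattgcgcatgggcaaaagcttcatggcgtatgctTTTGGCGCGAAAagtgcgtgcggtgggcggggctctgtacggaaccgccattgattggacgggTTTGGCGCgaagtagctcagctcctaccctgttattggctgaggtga
Mcm7: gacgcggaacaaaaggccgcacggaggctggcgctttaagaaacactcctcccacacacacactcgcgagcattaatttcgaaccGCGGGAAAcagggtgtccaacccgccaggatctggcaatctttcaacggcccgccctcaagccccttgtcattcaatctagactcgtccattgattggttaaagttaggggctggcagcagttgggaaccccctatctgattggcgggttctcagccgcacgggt
Orc1: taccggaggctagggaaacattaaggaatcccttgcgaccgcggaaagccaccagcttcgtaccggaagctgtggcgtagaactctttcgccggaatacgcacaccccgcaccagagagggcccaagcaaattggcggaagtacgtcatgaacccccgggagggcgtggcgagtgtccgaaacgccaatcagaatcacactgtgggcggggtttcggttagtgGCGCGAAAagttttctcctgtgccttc
Tk1: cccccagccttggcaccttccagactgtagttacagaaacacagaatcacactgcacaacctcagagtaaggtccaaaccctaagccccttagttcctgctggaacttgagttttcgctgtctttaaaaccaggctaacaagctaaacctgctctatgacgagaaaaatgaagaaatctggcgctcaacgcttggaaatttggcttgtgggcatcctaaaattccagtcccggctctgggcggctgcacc
Mcm6 holds 3 words, 2 of which overlap in the first run of capitals. Mcm7 has 2 windows, and the window with the most E2F words is printed. It holds 1 in the stretch shown and 1 in the 50 bases after it. The starts used for Mcm7, Orc1 and Tk1 lie inside the annotated spans of these genes. The stretch of Orc1 thus lies within its gene's span, that of Mcm7 in large part and that of Tk1 in smaller part. A match describes these letters and shows no binding.

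Values below are on a log2 scale, 1 unit being 2-fold, and 1 gene's level cannot be set against another's because probe sets differ in brightness. Differences carry their standard error (SE), and adjusted p values are from limma over all genes tested. The threshold for passing was an adjusted p under 0.05. Replicates are separate experiments. In bulk RNA, fewer dividing cells and less RNA per dividing cell cannot be told apart.

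After the final stimulation most of these genes were lower in memory cells. Of the 53, 34 fell, 2 rose and 17 did not pass, where 17.2% of all genes tested fell and 14.3% rose. The median difference, stimulated minus unstimulated, was -0.70, against 0.00 over all genes, and 48 of 53 lay below 0 (49.7% of all genes). The fall was at least 2-fold for 14 genes, but without memory unstimulated array 3 for only 5, Mcm7, Rpa1, Lig1, Tk1 and Rrm2. The count was 10 with the mean of all probe sets of a gene, and 7 with experiments 1 and 2 only. It was 17 without memory unstimulated array 1 or 2. For 39 genes every stimulated array lay below every unstimulated one (24.7% of all genes), and for 2 above (21.9%). In naive cells 0 genes passed by limma, where 0.0135% of all genes passed, each lower, and 2 had an unadjusted p below 0.05 (8.44% of all genes). The naive median was -0.12 (0.01 over all genes), with single differences between -0.51 and 0.27, and 39 of 53 lay below 0 (48.4% of all genes). With 2 unstimulated arrays these values moved: the median was -0.20 with 45 genes below 0 without array 1, and -0.04 with 28 below and 25 above 0 without array 2. Leaving out 1 array gave 0 to 7 genes at an unadjusted p below 0.05. The naive groups did not overlap for 13 genes lower after stimulation (12.8% of all genes) and 3 higher (13.6%). Set side by side, the group means were highest in memory unstimulated cells for 44 genes and lowest in memory stimulated cells for 35. Naive unstimulated cells lay between the 2 memory groups for 44. The order of group means was not counted over all genes, so these counts have no background to be read against.

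**Figure D1:**
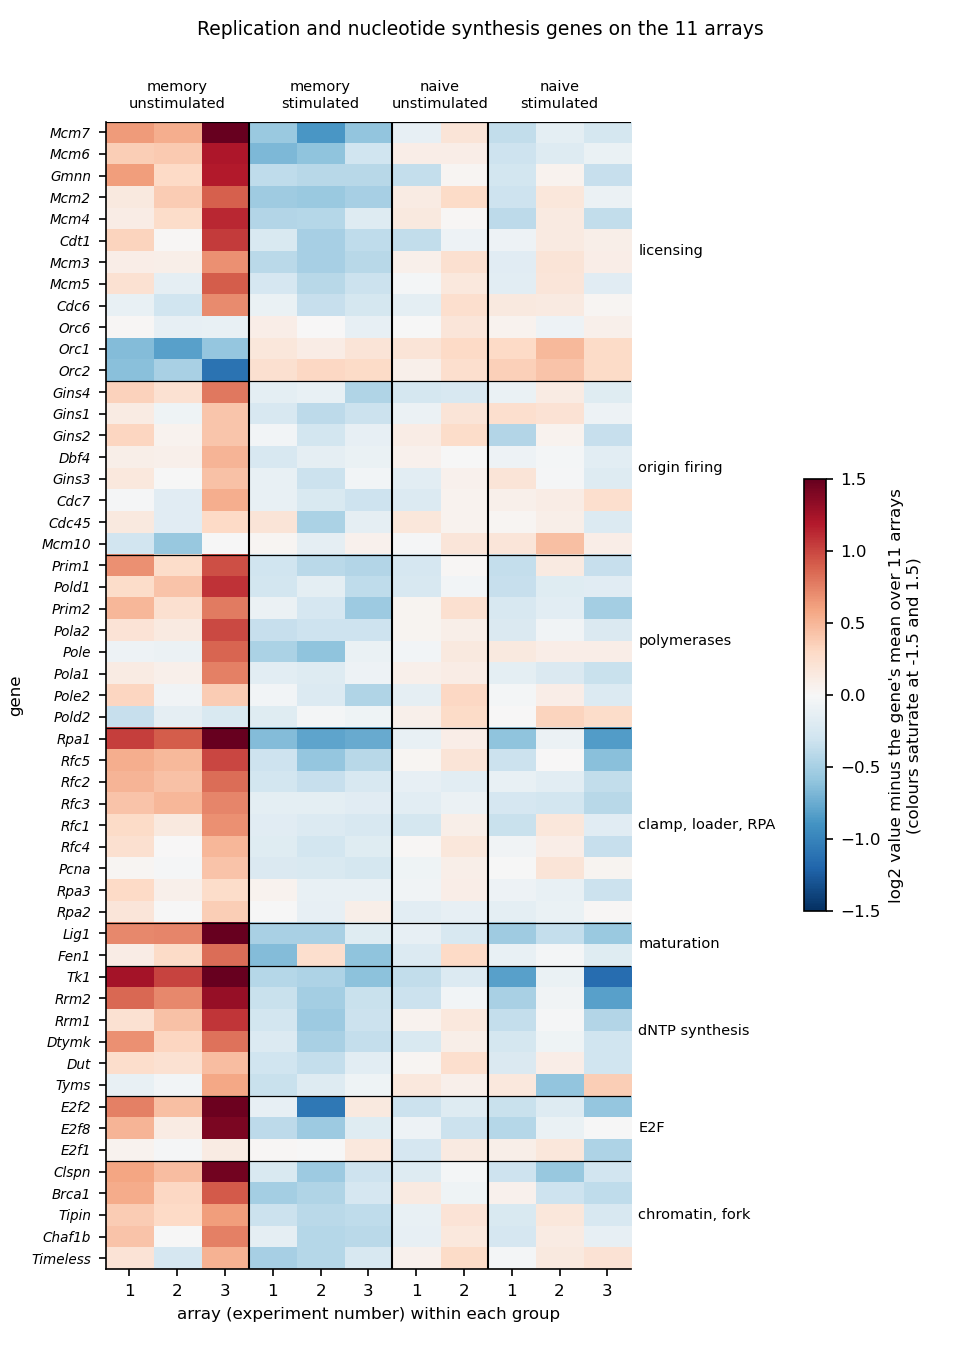
Each row is a gene and each column an array, and colour gives the log2 value minus that gene's mean over the 11 arrays. Red is densest in memory unstimulated array 3, the highest array of its group for 49 of 53 genes, and Orc1 and Orc2 run the other way.

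Memory unstimulated array 3 stood apart. It was the highest array of its group for 49 of 53 genes (39.1% of all genes), by a median of 0.50 over the mean of the other 2 arrays (0.02 over all genes). The median SD between arrays was 0.323 in memory unstimulated cells, 0.110 in memory stimulated, 0.131 in naive unstimulated and 0.174 in naive stimulated cells. Without that array 25 genes fell and 2 rose in memory cells, and the median difference was -0.53. Chaf1b, E2f2, Fen1, Gins1, Mcm4, Mcm5, Rfc1, Rfc4 and Timeless were the calls lost. Memory unstimulated means were then highest for 36 genes, and naive unstimulated means lay between the 2 memory groups for 35. With the experiment number as a block in the fit, 32 genes fell and 2 rose. Mcm5 (adjusted p = 0.0611), Gins1 (adjusted p = 0.0624) and Rfc4 (adjusted p = 0.0741) were then lost, and Pole passed (-0.63, adjusted p = 0.0374).

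Signs of sample makeup and RNA quality also differed between the groups. The 3′ minus 5′ difference of the actin control, which grows as RNA degrades, was 0.875 to 1.17 in memory unstimulated, 1.43 to 1.73 in memory stimulated, 1.54 to 1.59 in naive unstimulated and 1.93 to 2.60 in naive stimulated cells. That of the Gapdh control did not follow this order, at -1.51 to -1.29, -1.43 to -1.38, -1.65 to -1.42 and -1.82 to -1.48. The 4 CD8 T cell markers measured lay above the filter on all 11 arrays, and their summed level was 10.68 to 10.82, 10.03 to 10.14, 10.96 to 11.07 and 10.55 to 10.68 in the same order. Of 6 macrophage and dendritic cell markers, summed at 6.43 to 6.95, 6.06 to 6.24, 5.32 to 5.61 and 5.10 to 5.58, the brightest was Itgax, an integrin that activated T cells can also carry. Itgax, Csf1r and Adgre1 lay above the filter on all 11 arrays, Fcgr3 on 10, Cd14 on 9 and Lyz2 on 4. Group means of Cd14 in the same order were 2.71, 2.81, 1.51 and 1.60, higher in memory cells. Those of Adgre1 were 1.69, 1.80, 2.00 and 1.97, lower in memory cells. The B cell markers Cd79a and Ms4a1 and the helper T cell marker Cd4 lay below the filter on every array, whereas the B cell markers Cd79b and Blnk lay above it on 6 and 1 arrays and the helper and regulatory T cell markers Cd40lg and Foxp3 on 8 and 4. The part of these differences in the results was not tested.

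**Figure D2:**
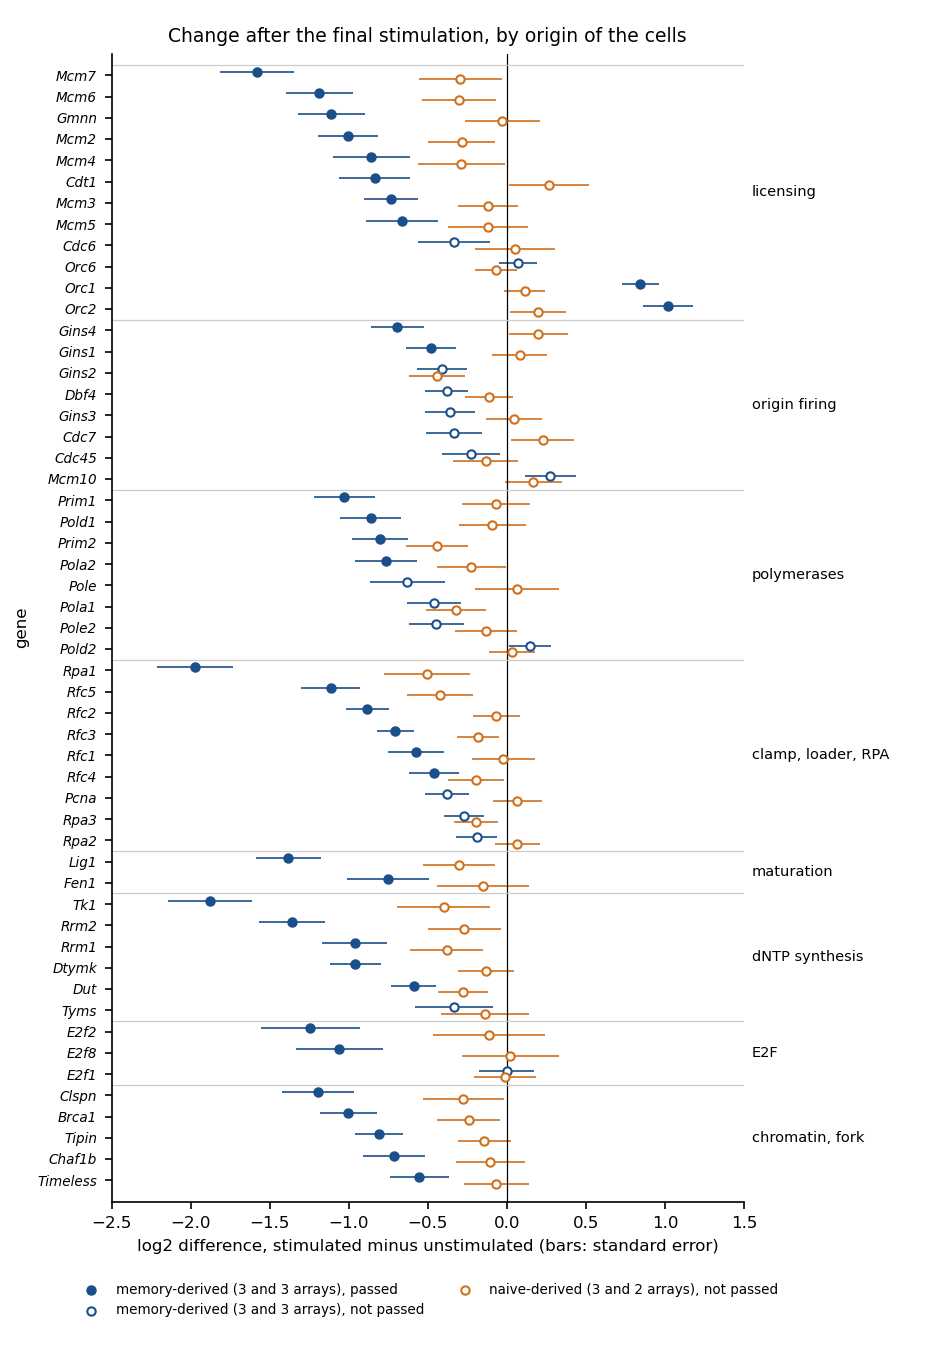
Points give the log2 difference, stimulated minus unstimulated, for memory cells (blue, 3 and 3 arrays) and naive cells (orange, 3 and 2 arrays), with bars of 1 SE. Filled points passed: 34 lie left of 0 and 2 right of it in memory cells, and 0 passed in naive cells.

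Among the licensing genes 8 of 12 fell in memory cells and 2 rose, with a median of -0.79 (6 and 2 without array 3, median -0.54, and 5 fell without memory stimulated array 2). Mcm7, a subunit of the helicase ring, lay at 7.78, 7.69 and 8.68 on memory unstimulated arrays 1 to 3 and at 6.59, 6.28 and 6.55 on the stimulated arrays. In naive cells it lay at 7.02 and 7.34 unstimulated and at 6.77, 7.0 and 6.88 stimulated. The memory groups were more than 1 unit apart and the naive groups only just missed overlapping. Mcm7 fell by 1.58 in memory cells (SE 0.235, 2.99-fold lower, adjusted p = 0.000788) and differed by -0.29 in naive cells (SE 0.262). Mcm2, another subunit, lay at 5.56, 5.80 and 6.31 in memory unstimulated and 4.88, 4.86 and 4.92 in memory stimulated cells, and at 5.54 and 5.70, then 5.10, 5.58 and 5.32, in naive cells. Its 3 memory stimulated arrays were the lowest of all 11, and it fell by 1.00 (SE 0.189, adjusted p = 0.00271). The rest of the ring fell as well, Mcm6 by 1.19, Mcm4 by 0.86, Mcm3 by 0.73 and Mcm5 by 0.66. Mcm3 did not pass with experiments 1 and 2 only (adjusted p = 0.051). The calls on Mcm4 and Mcm5 depended on single arrays. Without memory unstimulated array 3 the differences were -0.54 (adjusted p = 0.051) for Mcm4 and -0.38 (adjusted p = 0.125) for Mcm5. Mcm4 also did not pass without memory stimulated array 1 or 2 (adjusted p = 0.0642 and 0.0643), and Mcm5 passed in only 2 of the 11 fits that leave out 1 array, those without memory unstimulated array 2 or naive stimulated array 2.

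Cdt1, the helicase loader, and its inhibitor geminin fell together. Cdt1 lay at 6.78, 6.46 and 7.50 in memory unstimulated and 6.22, 5.95 and 6.07 in memory stimulated cells, and at 6.08 and 6.38, then 6.37, 6.59 and 6.54, in naive cells. It fell by 0.84 in memory cells (SE 0.226, adjusted p = 0.0161), by 0.54 without unstimulated array 3, and did not pass without memory stimulated array 2 (adjusted p = 0.0576). In naive cells the difference was 0.27, on the other side of 0. Gmnn lay at 6.34, 6.01 and 6.90 in memory unstimulated and at 5.33, 5.29 and 5.30 in memory stimulated cells, and at 5.35 and 5.75, then 5.44, 5.76 and 5.37, in naive cells. All 8 arrays of the other groups lay below the 3 memory unstimulated arrays, and the fall in memory cells was 1.11 (SE 0.212, adjusted p = 0.00287). Cdc6, the second loader, lay at 4.13, 3.95 and 4.95, then 4.14, 3.90 and 3.98, in memory cells, and at 4.10 and 4.49, then 4.38, 4.37 and 4.27, in naive cells. The memory groups overlapped, and the naive stimulated arrays lay above every memory array other than unstimulated array 3. The difference in memory cells was -0.33 (adjusted p = 0.307), or -0.03 without that array.

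Of the 3 origin recognition genes, Orc1 and Orc2 rose. Orc1, the subunit that binds ATP and helps recruit Cdc6, lay at 3.35, 3.19 and 3.43 in memory unstimulated and at 4.18, 4.12 and 4.20 in memory stimulated cells. Naive cells lay at 4.20 and 4.31 unstimulated and at 4.30, 4.50 and 4.30 stimulated. Orc2, which stays with the origin complex through the cycle, lay at 5.04, 5.17 and 4.56, then 5.90, 5.98 and 5.95, in memory cells, and at 5.74 and 5.91, then 6.02, 6.09 and 5.95, in naive cells. For each gene the 3 memory unstimulated arrays were the lowest of all 11. Orc1 rose by 0.84 (SE 0.117, adjusted p = 0.000574) and Orc2 by 1.02 (SE 0.156, adjusted p = 0.000914), and by 0.90 and 0.84 without array 3. The other probe sets of Orc2 gave 0.77 and 0.91, and that of Orc1 gave 0.26. Orc6, another subunit, differed by 0.07 (SE 0.119, adjusted p = 0.698).

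**Figure D3:**
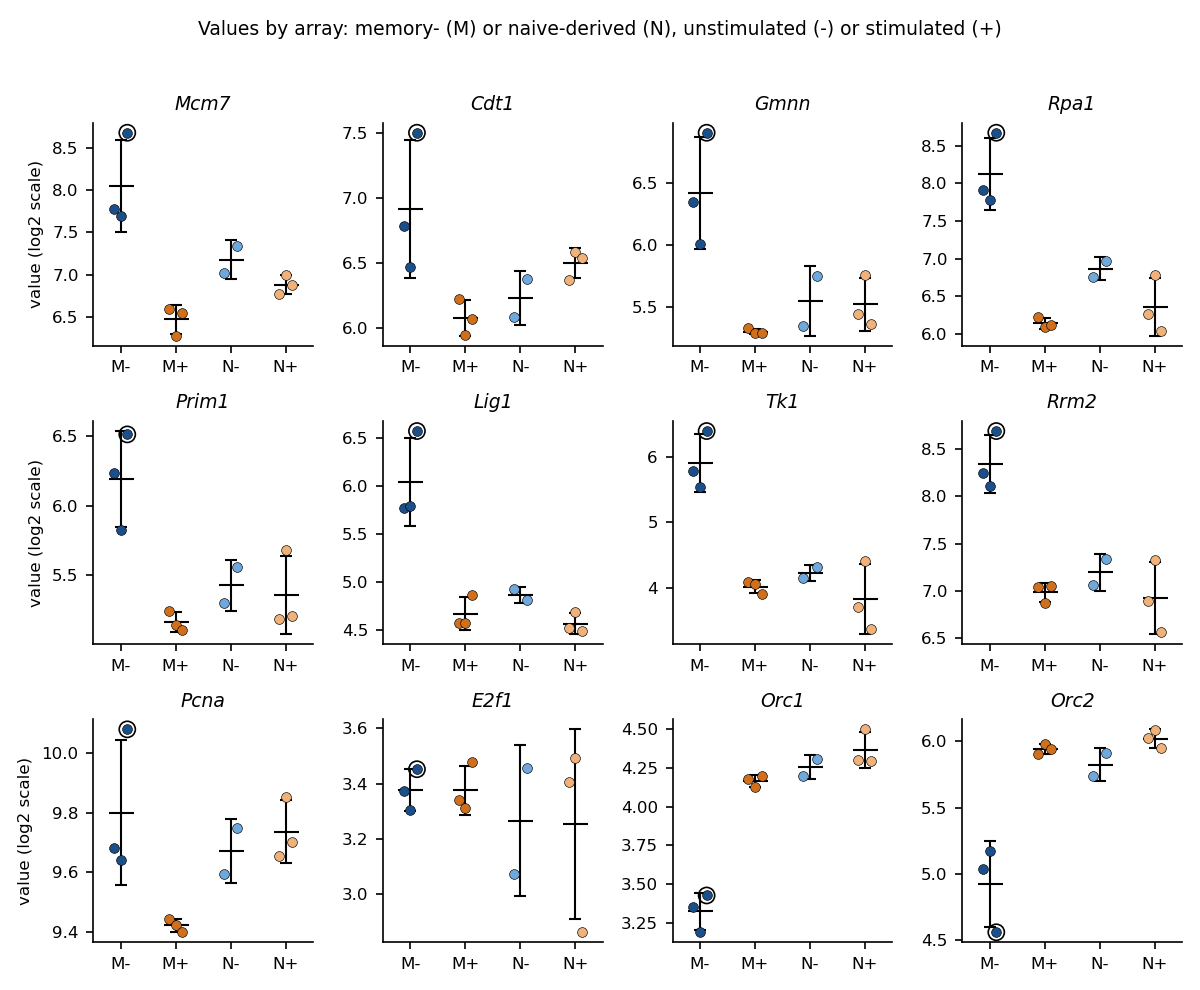
Log2 values of 12 genes on each array, with bars for the group mean and 1 SD; the ringed point is memory unstimulated array 3. Mcm7, Rpa1, Lig1, Tk1 and Rrm2 stand highest in memory unstimulated cells on every array, Pcna and E2f1 did not pass, and Orc1 and Orc2 stand lowest there.

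Of the 8 origin firing genes 2 fell in memory cells and 0 rose, with a median of -0.37. Without memory unstimulated array 3 the median was -0.24 and 1 fell, as also without memory unstimulated array 1 or any 1 memory stimulated array and with the experiment block, and 4 fell without memory unstimulated array 2. Gins4, of the GINS complex, lay at 5.29, 5.17 and 5.73 in memory unstimulated and 4.79, 4.83 and 4.48 in memory stimulated cells, and at 4.67 and 4.70, then 4.84, 5.06 and 4.75, in naive cells. It was highest in memory unstimulated cells on every array and fell by 0.69 (SE 0.167, adjusted p = 0.0095). With experiments 1 and 2 only, Gins4 did not pass (adjusted p = 0.0743). Gins1 fell by 0.48 (SE 0.155, adjusted p = 0.0368), but not without memory unstimulated array 1 or 3 or any 1 memory stimulated array (adjusted p 0.0633 to 0.119). Dbf4, which activates the kinase Cdc7, lay at 6.33, 6.32 and 6.75, then 6.0, 6.11 and 6.14, in memory cells, and at 6.30 and 6.23, then 6.16, 6.21 and 6.08, in naive cells. Its memory groups did not overlap, but the difference of -0.38 did not pass (SE 0.136, adjusted p = 0.0541). Cdc45, the helicase partner, lay at 4.55, 4.23 and 4.70, then 4.60, 3.93 and 4.28, in memory cells, and at 4.57 and 4.45, then 4.44, 4.50 and 4.20, in naive cells. Its groups overlapped throughout and the difference was -0.23 (adjusted p = 0.399). The others that did not pass lay at -0.41 for Gins2, -0.36 for Gins3, -0.33 for Cdc7 and 0.27 for Mcm10, which helps to start unwinding.

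Polymerase alpha with its primase starts each new strand, and 4 of the 8 polymerase and primase genes fell in memory cells, with a median of -0.70. The median was -0.43 without memory unstimulated array 3, and 7 fell without memory unstimulated array 2. Prim1, the catalytic primase, lay at 6.23, 5.82 and 6.51 in memory unstimulated and 5.24, 5.14 and 5.10 in memory stimulated cells, and at 5.30 and 5.56, then 5.19, 5.68 and 5.20, in naive cells. No array of another group reached its memory unstimulated values, and it fell by 1.03 (SE 0.192, adjusted p = 0.00256). Its partner Prim2 fell by 0.80 and Pola2, the accessory subunit of polymerase alpha, by 0.77 (0.49 without array 3). Prim2 did not pass with the mean of all probe sets of a gene (adjusted p = 0.0683). Pold1, the catalytic subunit of polymerase delta, fell by 0.86 (SE 0.19). Pola1, the catalytic subunit of polymerase alpha, lay at 4.18, 4.14 and 4.82, then 3.90, 3.87 and 3.98, in memory cells, and at 4.13 and 4.17, then 3.91, 3.84 and 3.73, in naive cells. Stimulated arrays were below unstimulated ones in both kinds of cell, by -0.46 (adjusted p = 0.0611) and -0.32 (SE 0.191), neither of which passed. Pole, of polymerase epsilon, differed by -0.63 (adjusted p = 0.0677), Pole2 by -0.45 and Pold2, a small delta subunit, by 0.15.

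The largest fall belonged to Rpa1, the main subunit of the protein that coats single-stranded DNA. Rpa1 lay at 7.91, 7.78 and 8.67 in memory unstimulated and 6.23, 6.09 and 6.12 in memory stimulated cells, and at 6.76 and 6.98, then 6.27, 6.78 and 6.04, in naive cells. The memory unstimulated arrays were the highest of all 11 by at least 0.8 units, and naive cells lay between the memory groups or near the lower one. It fell by 1.97 (SE 0.241, 3.93-fold lower, adjusted p = 0.000298), by 1.70 without array 3, and its other probe set gave -1.73. Its partners Rpa2 (-0.19) and Rpa3 (-0.27) did not pass. Of the 5 clamp loader subunits, Rfc5 fell by 1.11, Rfc2 by 0.88 (SE 0.134), Rfc3 by 0.70 (SE 0.118), Rfc1 by 0.58 and Rfc4 by 0.46. Rfc1, the largest subunit, lay at 4.51, 4.37 and 4.91, then 4.06, 4.02 and 3.99, in memory cells, and at 3.96 and 4.31, then 3.89, 4.40 and 4.05, in naive cells. The memory groups did not overlap, but Rfc1 did not pass without memory unstimulated array 1 or 3 or any 1 memory stimulated array (adjusted p 0.0507 to 0.107). Rfc4 passed in only 3 of 11 such fits, those without memory unstimulated array 2 or naive stimulated array 2 or 3. Pcna, the sliding clamp itself, lay at 9.68, 9.64 and 10.08, then 9.44, 9.42 and 9.40, in memory cells, and at 9.60 and 9.75, then 9.66, 9.86 and 9.70, in naive cells. Its memory stimulated arrays were the lowest of all 11, yet the difference of -0.38 did not pass (SE 0.139, adjusted p = 0.0594).

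Lagging-strand pieces are trimmed by Fen1 and joined by Lig1. Lig1 lay at 5.77, 5.79 and 6.58 in memory unstimulated and 4.57, 4.57 and 4.87 in memory stimulated cells, and at 4.92 and 4.81, then 4.51, 4.69 and 4.49, in naive cells. The other 8 arrays all lay below the memory unstimulated ones, and it fell by 1.38 (SE 0.203, 2.60-fold lower, adjusted p = 0.000743). Fen1 lay at 5.79, 5.96 and 6.51, then 5.01, 5.92 and 5.06, in memory cells, and at 5.46 and 5.96, then 5.56, 5.64 and 5.49, in naive cells. Memory stimulated array 2 overlapped the unstimulated arrays, and the fall of 0.75 (SE 0.26, adjusted p = 0.0479) held in only 2 of the 11 fits that leave out 1 array, those without memory unstimulated array 1 or memory stimulated array 2. Without memory unstimulated array 3 the difference was -0.54 (adjusted p = 0.18).

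Deoxynucleotide synthesis genes fell in 5 of 6 cases, with a median of -0.96. Tk1, the thymidine kinase of dividing cells, lay at 5.77, 5.53 and 6.39 in memory unstimulated and 4.10, 4.06 and 3.91 in memory stimulated cells, and at 4.15 and 4.32, then 3.71, 4.42 and 3.37, in naive cells. Every other array was at least 1 unit below the memory unstimulated ones. Tk1 fell by 1.88 (SE 0.266, 3.67-fold lower, adjusted p = 0.000623) and by 1.63 without array 3. Rrm2, the small subunit of ribonucleotide reductase, which makes deoxynucleotides from ribonucleotides, lay at 8.24, 8.10 and 8.69, then 7.04, 6.87 and 7.05, in memory cells, and at 7.06 and 7.33, then 6.89, 7.33 and 6.57, in naive cells. Rrm1, the large subunit, lay at 6.88, 7.09 and 7.72, then 6.37, 6.11 and 6.33, in memory cells, and at 6.71 and 6.81, then 6.29, 6.64 and 6.21, in naive cells. Memory unstimulated arrays were the highest of all 11 for each subunit. Rrm2 fell by 1.36 (SE 0.207, adjusted p = 0.000881) and Rrm1 by 0.96 (SE 0.206, adjusted p = 0.00522). Dtymk, which phosphorylates thymidylate, fell by 0.96, and Dut, which keeps uracil out of DNA, by 0.59. The other probe sets of Dtymk gave -0.72 and -0.13. Dut did not pass with scaling on the hybridization controls (adjusted p = 0.054). Tyms, the thymidylate synthase, lay at 1.70, 1.77 and 2.39, then 1.47, 1.62 and 1.75, in memory cells, and at 1.97 and 1.89, then 1.97, 1.22 and 2.18, in naive cells. These values are near the filter level of 1.54, the groups overlap, and the difference of -0.34 did not pass (adjusted p = 0.347). Another probe set, shared with the pseudogene Tyms-ps, was not used.

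The 3 E2F factors differed among themselves. E2f2, an activator, lay at 3.03, 2.72 and 3.74 in memory unstimulated and 2.15, 1.19 and 2.41 in memory stimulated cells, and at 1.94 and 2.08, then 1.93, 2.08 and 1.69, in naive cells. E2f8, a repressor of the same targets, lay at 4.07, 3.69 and 4.97, then 3.16, 3.02 and 3.37, in memory cells, and at 3.48 and 3.24, then 3.13, 3.46 and 3.55, in naive cells. Both were highest in memory unstimulated cells on every array. E2f2 fell by 1.24 (SE 0.315, adjusted p = 0.0118), or -0.96 without array 3, which did not pass (adjusted p = 0.0503). E2f8 fell by 1.06 (SE 0.274, adjusted p = 0.0131) and by 0.70 without array 3. E2f1, the best known activator, lay at 3.37, 3.30 and 3.45, then 3.34, 3.31 and 3.48, in memory cells, and at 3.07 and 3.46, then 3.41, 3.49 and 2.86, in naive cells. Its groups overlapped, and the difference in memory cells was 0.00 (SE 0.174, adjusted p = 0.999).

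All 5 measured genes of chromatin assembly and the fork fell in memory cells, with a median of -0.81 (3 fell without memory unstimulated array 3 or memory stimulated array 2 or 3). Clspn, claspin, which carries the checkpoint signal at stalled forks, lay at 4.53, 4.40 and 5.38, then 3.71, 3.39 and 3.62, in memory cells, and at 3.74 and 3.90, then 3.63, 3.37 and 3.65, in naive cells. Brca1, a fork and break repair protein, lay at 4.26, 4.01 and 4.61, then 3.18, 3.25 and 3.44, in memory cells, and at 3.83 and 3.63, then 3.76, 3.39 and 3.31, in naive cells. Memory unstimulated cells were highest for both on every array. Clspn fell by 1.19 (SE 0.228, adjusted p = 0.00287) and Brca1 by 1.00 (SE 0.178, adjusted p = 0.00196). Tipin, of the fork protection complex, fell by 0.81, Chaf1b, a histone chaperone subunit, by 0.71 and Timeless, the partner of Tipin, by 0.55. Chaf1b did not pass without memory unstimulated array 3 or memory stimulated array 2 or 3 (adjusted p 0.0537 to 0.0616), and Timeless passed in only 1 of the 11 fits, that without memory unstimulated array 2. Where genes had more than 1 probe set above the filter, all pointed the same way in 34 of 39 genes. Brca1, Cdc7, Chaf1b, Mcm3 and Prim2 had a dimmer one on the other side of 0.

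**Figure D4:**
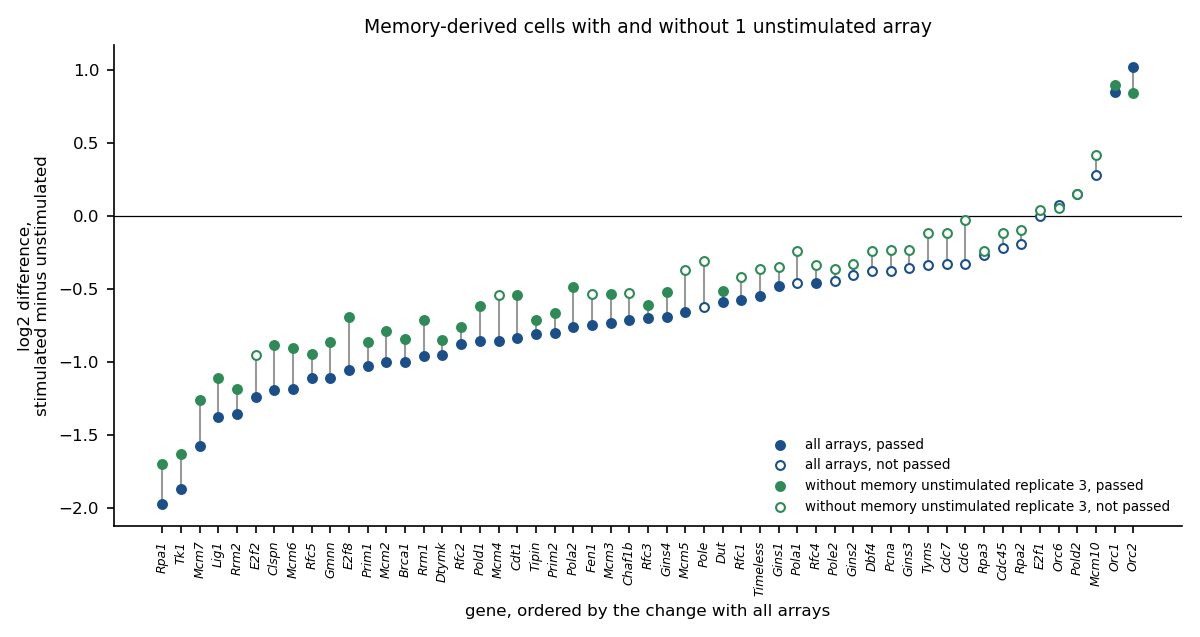
For each gene the log2 difference in memory cells is shown with all arrays (blue) and without memory unstimulated array 3 (green), filled where it passed. The fall became smaller for most genes, 25 still fell, and Orc1 and Orc2 stayed above 0.

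Before the final stimulation, naive cells already held less of some of these transcripts than memory cells. Naive minus memory, 14 genes were lower and 2 higher, where 14.9% of all genes tested were lower and 10.9% higher. The median was -0.37 (-0.01 over all genes), and 46 of 53 lay below 0 (50.8% of all genes). For 26 genes the naive arrays lay below every memory array (28.9% of all genes), and for 3 above (24.4%). Tk1 was lower by 1.66 on the log2 scale (-1.66, SE 0.297, 3.17-fold, adjusted p = 0.00275), Rpa1 was at -1.25 (SE 0.27), Lig1 at -1.18 (SE 0.227), Rrm2 at -1.15 (SE 0.231) and E2f2 at -1.15 (SE 0.352). Clspn (-0.95), Mcm7 (-0.88), Gmnn (-0.87), Prim1 (-0.76), Pold1 (-0.74), Rfc2 (-0.74), Gins4 (-0.71), Dtymk (-0.68) and Rfc3 (-0.68) were the others. The other probe sets of Dtymk gave -0.49 and -0.07. Orc1 was higher by 0.93 (SE 0.131, adjusted p = 0.000879) and Orc2 by 0.90 (SE 0.174). The helicase subunits other than Mcm7 did not pass, with Mcm6 at -0.56, Mcm4 at -0.42, Mcm2 at -0.27, Mcm5 at -0.26 and Mcm3 at -0.13. Pcna was at -0.13. Without memory unstimulated array 3, Mcm2, Mcm3 and Pcna were at -0.06, 0.07 and 0.01. This comparison shares its memory unstimulated arrays with the stimulation comparison, so the 2 sets of values are not independent.

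These counts rest on 2 naive arrays. Without memory unstimulated array 3, 12 genes were lower and 2 higher, E2f2 (adjusted p = 0.107) and Prim1 (adjusted p = 0.068) were lost, and the median was -0.16. Without naive unstimulated array 1 the count lower was 4, and without array 2 it was 8, the lone naive array being assumed to vary like the other groups. Rpa1 (adjusted p = 0.0607) and Rrm2 (adjusted p = 0.0523) were among those lost without array 1. With the experiment as a block it was 9, with 3 higher. Gmnn (adjusted p = 0.0547), Pold1 (adjusted p = 0.0544), Prim1 (adjusted p = 0.0588), E2f2 (adjusted p = 0.0641) and Mcm7 (adjusted p = 0.065) were lost under that block, and Pold2 passed as higher (0.43, adjusted p = 0.0421). Orc1, Orc2, Rfc2, Rfc3, Lig1 and Tk1 passed under all 20 alternative settings.

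Stimulated naive and stimulated memory cells were compared next. By limma 0 of the 53 genes passed, where 3.7% of all genes passed (1.69% higher and 2.01% lower in naive cells), and 6 had an unadjusted p below 0.05 (16.3% of all genes), all higher in naive cells. The median, naive minus memory, was 0.16 (-0.01 over all genes), and 41 of 53 lay above 0 and 12 below it (51.9% of all genes below). The 6 were Timeless (0.51, SE 0.186), Mcm3 (0.48, SE 0.172), Gins1 (0.45, SE 0.155), Mcm2 (0.45, SE 0.189), Pcna (0.32, SE 0.139) and Pold2 (0.30, SE 0.13), and the lowest adjusted p was 0.167. The count of 6 became 12 without memory unstimulated array 3, 4 without memory stimulated array 2 or 3 or naive stimulated array 1, 2 without memory stimulated array 1 or naive stimulated array 2 or 3, and 0 with scaling on the hybridization controls. The median was 0.07 without naive stimulated array 2 and 0.08 with that scaling. For 17 genes the naive arrays lay above every memory array (11.4% of all genes), and for 1 below (14.3%).

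Whether the response to stimulation differed between the 2 kinds of cell was tested as an interaction. By limma 0 of 53 genes passed, where 2.71% of all genes passed (1.61% higher and 1.09% lower), and 25 had an unadjusted p below 0.05 (23.3% of all genes), 23 higher and 2 lower. The naive response minus the memory response had a median of 0.56 (0.02 over all genes; 0.37 without memory unstimulated array 3), and 46 of 53 lay above 0 and 7 below it (48.3% of all genes below). Tk1 had 1.48 (SE 0.399, adjusted p = 0.0684), Rpa1 1.47 (SE 0.362, adjusted p = 0.0564), Mcm7 1.29 (SE 0.352, adjusted p = 0.0709) and Orc1 -0.73 (SE 0.176, adjusted p = 0.0537). Mcm7 (0.97, adjusted p = 0.0421) and Orc1 (-0.78, adjusted p = 0.041) passed without memory unstimulated array 3, and 12 genes higher and 2 lower passed without memory unstimulated array 2. With all 11 arrays, other settings also gave calls: 6 higher and 1 lower with a random block by origin and experiment, 9 and 2 with a filter at the 60th percentile, and 11 and 2 with the trend and robust options of eBayes. With the experiment as a block 0 members passed, and 26 of all genes did where 401 had. Whether single genes responded differently in the 2 kinds of cell thus depended on the setting, and by the model as designed no such difference was shown.

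Nucleotide genes outside the list moved in both directions. De novo purine and pyrimidine synthesis makes the ribonucleotides, and of 23 such genes 13 rose and 3 fell in memory cells, with a median of 0.54, where 14.3% of all genes rose and 17.2% fell. The counts were 9 and 2 without memory unstimulated array 3, and 7 rose without memory stimulated array 2 and 8 with scaling on the hybridization controls. The largest rise was that of Mthfd2, a mitochondrial folate enzyme, by 1.90 (SE 0.146, adjusted p = 3.43e-05), and the largest fall that of Ctps2, a CTP synthase, by 0.93 (SE 0.14). In unstimulated cells 12 of the 23 were higher in naive cells and 3 lower, with Shmt1, a serine and folate enzyme, at 2.00 (SE 0.239) and Adssl1 at -1.28 (SE 0.284), where 10.9% of all genes were higher and 14.9% lower. Without naive unstimulated array 1 the count higher was 6, without array 2 it was 4 with 1 lower, and it was 6 with scaling on the hybridization controls. Of 8 genes of deoxynucleotide salvage and removal, 4 fell and 1 rose in memory cells (2 and 0 without memory unstimulated array 3 or memory stimulated array 2 or 3). Dck, the deoxycytidine kinase, fell by 1.80 (SE 0.245), and Dctd rose by 0.93 (0.60 without array 3, adjusted p = 0.0914). In naive cells 0 genes of either list passed by limma, with 3 and 2 at an unadjusted p below 0.05. The ribonucleotide enzymes and the deoxynucleotide enzymes thus lay on opposite sides of 0 in memory cells by their medians, 0.54 and -0.96.

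**Figure D5:**
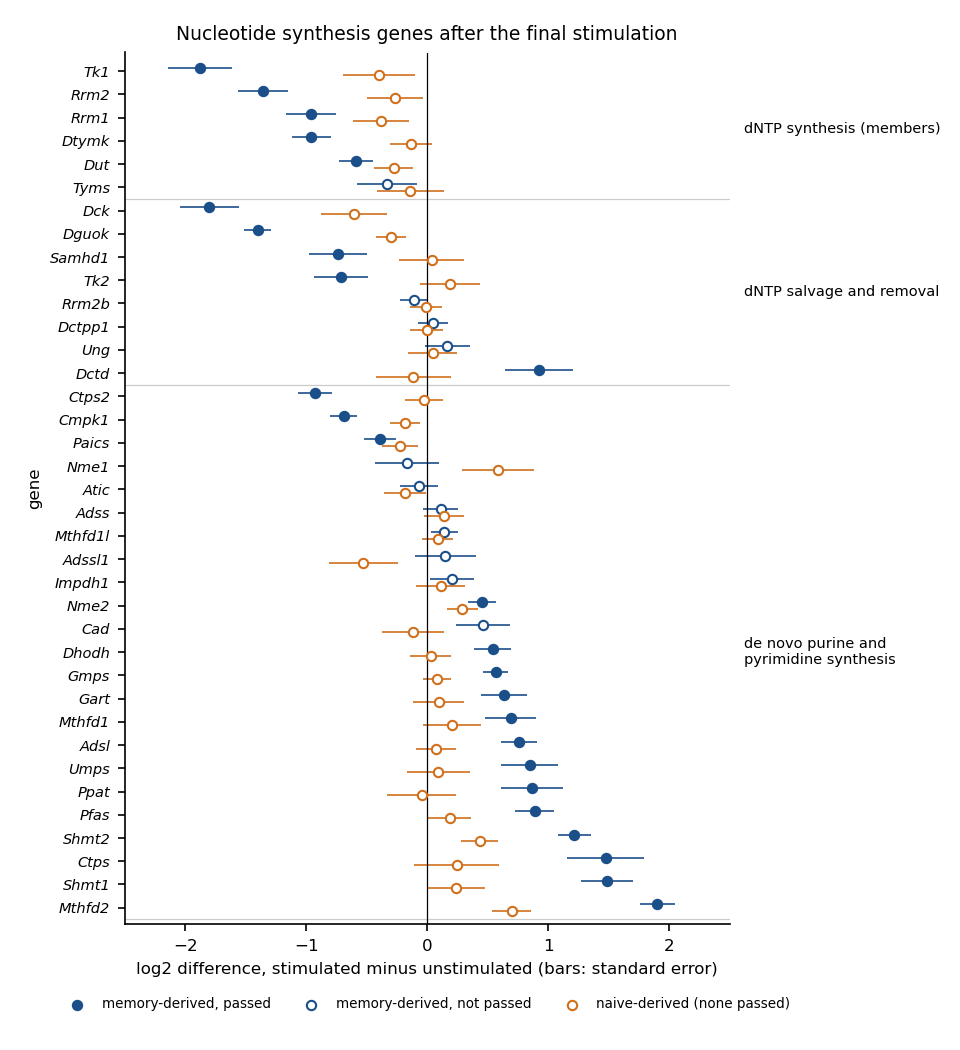
Log2 differences, stimulated minus unstimulated, with bars of 1 SE, for deoxynucleotide synthesis, salvage and removal, and de novo purine and pyrimidine synthesis; filled points passed. In memory cells the top group lies left of 0 and 13 filled points of the bottom group lie to the right, and 0 passed in naive cells.

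Neighbouring parts of the cell cycle gave the following counts in memory cells, where 17.2% of all genes fell and 14.3% rose. Of 25 other replication genes 9 fell and 2 rose (median -0.43, or -0.23 without memory unstimulated array 3), with Asf1b, a histone chaperone, at -1.51 (SE 0.18) and Mtbp at 0.66. Of 12 genes of the E2F and retinoblastoma families 4 fell and 2 rose (1 rose with the experiment block, and without any 1 memory or naive unstimulated array or memory stimulated array), with Rbl2, the pocket protein p130 of resting cells, at -1.67 (SE 0.271) and E2f5 at 1.09. Of 14 genes of the replication checkpoint and fork repair 3 fell (1 without memory unstimulated array 1 or 3 or memory stimulated array 2), a share near that of all genes, led by Rad51ap1 at -1.06. Of 6 genes measured from a list of 9 for histones, DNA methylation and other chromatin proteins, 4 fell and 1 rose. The counts were the same without memory unstimulated array 3, and the median went from -0.85 to -0.61. Dnmt1, which copies methylation onto new strands, was at -1.37 and Cdca7 at 0.78. Of 19 mitosis genes 18 fell, with a median of -1.10 and Nusap1, a spindle protein, at -2.05. Without memory unstimulated array 3, 16 of them fell and the median was -0.92, and 17 fell with the experiment block. The E2F words stood in 1 of 18 mitosis promoters (5.56%), whereas TTTGAA, a word of the cell cycle homology region, stood in 12 of 18 (66.7%), against 9 of 45 (20%) for the replication list and 20.2% of all genes. CCAAT stood in 28 of the 45 (62.2%) and in 41.1% of all genes. E2F words stood in 10 of the 27 genes that fell (37%) and in 4 of the 15 that did not pass (26.7%), and Orc1, which rose, holds one.

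Across the 11 arrays most of the genes followed one another. The correlation of a gene with the mean of the other members exceeded 0.8 for 37 of 53 genes and was below 0 for 5, Orc2, Orc1, Pold2, Orc6 and Mcm10. Outside all lists, the genes most like the mean of the members were Rad54l (r = 0.99), Kif20b, Rfwd3, Cep55, Smc2, Arhgap11a, Nek2, Aspm, Gen1 and Septin6 (r = 0.97). These correlations run over 11 arrays that fall into 4 groups, so they describe the arrays and carry no test. The share of all genes above 0.8 was not counted, so the 37 have no background to be read against.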

How the data were processed

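RNA of 11 samples was measured on Affymetrix oligonucleotide arrays, processed with Affymetrix Expression Console per the submitters' processing notes. The deposited values were read as log10, a scale inferred here; summarization and log base are not given in the sources used here. Hybridization controls at 1.5, 5, 25 and 100 pM averaged 1.38, 1.87, 2.58 and 3.65, steps of 0.944, 1.02 and 1.77 per log10 of concentration, so folds rest on this inference. All arrays held the same sorted values, so they had been quantile normalized by the authors, intensity carries no depth, and the number of arrays limits precision.

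Values were multiplied by 3.32. Of 45037 probe sets that are not controls, 34945 had 1 gene symbol, 932 several and 9160 were not listed, and only the first were named. Testing required a value above the 40th percentile of the array (1.54) on 2 or more arrays. The 4 group means were estimated from all 11 arrays in 1 model (limma 3.58.1, functions lmFit and eBayes, R 4.3.3), with 7 degrees of freedom left among samples and 3.86 from the prior. Tests were two-sided, with Benjamini-Hochberg adjustment over 14806 genes. Figures used matplotlib 3.10.9, pandas 2.3.3 and numpy 2.4.6 in Python 3.11.15. The fit was tested on simulated data.

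Arrays with 1 number come from 1 experiment. After the group means were taken off, pairs of arrays correlated at -0.0716 to 0.113 within an experiment (median 0.0348, 15 pairs) and at -0.131 to 0.113 between experiments (30 pairs). Where the starting cell was also shared, the 5 pairs all lay above 0, from 0.0467 to 0.113 (median 0.0946, consensus correlation 0.122). The model holds no block, and a block was an alternative. The other alternatives were a random block by origin and experiment, scaling on hybridization controls, no filter, a 60th percentile filter, the mean of all probe sets, eBayes with trend and robust options, only the groups compared, and each array left out. Experiments 1 and 2 alone were added after seeing the data. The members and gene lists were chosen with earlier results of these data known. Every member may be named, values per array are given for a set list and the largest change in each role, and genes outside the members are named only as the largest rise and fall of their list. A gene's promoter holds a word if any of its RefSeq windows does.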

Additional observations from a re-analysis of the deposited data

Results flagged for a closer look

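Of the genes outside the members that lists could name, 4 had a response to stimulation that differed between naive and memory cells by the interaction term in limma. The naive response minus the memory response was 1.21 for Asf1b (SE 0.27, adjusted p = 0.0439), -1.20 for Mthfd2 (SE 0.218, adjusted p = 0.0269), 0.90 for Ctps2 (SE 0.21, adjusted p = 0.0498) and 1.10 for Dguok, a mitochondrial deoxyguanosine kinase (SE 0.17, adjusted p = 0.0208). Without memory unstimulated array 3 they were 0.98, -1.09, 0.81 and 1.09, and Ctps2 did not pass (adjusted p = 0.0609). With the mean of all probe sets of a gene, Ctps2 was at 0.05 (adjusted p = 0.874), so its difference rests on the probe set used. Asf1b, Mthfd2 and Dguok passed with that mean, at 1.21, -1.24 and 1.10. With the experiment as a block none of the 4 passed (adjusted p 0.0568 to 0.0934), and without naive unstimulated array 1 none of them did (adjusted p 0.0967 to 0.165), nor did any of the 14683 genes tested. Of 19 alternatives, Dguok passed in 12, Mthfd2 in 8, Asf1b in 6 and Ctps2 in 4.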

How the results depend on the processing

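In memory cells 22 of the 36 members that changed passed under all 20 alternatives, and of 1040 values of called genes under the alternatives 907 kept their call, 133 did not and 0 changed direction. Leaving out 1 array gave 25 to 39 members lower and 2 higher in memory cells, 0 in naive cells, 4 to 17 lower and 2 to 3 higher by origin in unstimulated cells, 0 in stimulated cells, and 0 to 12 higher and 0 to 2 lower in the interaction. The lowest count by origin, 4, was without naive unstimulated array 1, and it was 8 without array 2. The highest interaction counts, 12 and 2, were without memory unstimulated array 2, and without array 3 they were 1 and 1. The count lower by origin in unstimulated cells, 14, became 9 with the replicate block, 7 with only the 2 groups compared and 8 with experiments 1 and 2 only, a setting chosen after seeing the data. The interaction counts of 0 became 6 higher and 1 lower with the random block by origin and experiment, 9 and 2 with the filter at the 60th percentile, and 11 and 2 with the trend and robust options, and the cause was not tested. Among the counts over all members the replicate block changed no other by over 1.5 times, but counts of single lists moved. In memory cells it took origin firing genes that fell from 2 to 1, and E2F and retinoblastoma family genes that rose from 2 to 1. By origin in unstimulated cells, genes lower went from 2 to 0 for licensing and from 2 to 0 for polymerases and primase. They went from 1 to 0 for E2F factors and from 7 to 1 for mitosis, and other lists moved as well. All genes called in the interaction went from 401 to 26. With hybridization control scaling the share of higher genes among all those called went from 45.6% to 33.9% by origin in stimulated cells and from 59.6% to 46.6% in the interaction. With 2 to 3 arrays a group, the number of arrays limits the precision, and a gene that missed the threshold is not shown to be unchanged.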
